A study of Mus musculus with 15 samples.

Results

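Hypoxic mouse melanocytes depleted of Hif1a were compared with normoxic melanocytes of the same line, to see which parts of the hypoxic expression state remained when Hif1a was low and which genes lay beyond their normoxic level. The comparison used 9 of the 15 arrays of the series, chosen by their labels: 3 normoxia arrays, 3 arrays of cells given the Hif1a siRNA Si1 and 3 of cells given the Hif1a siRNA Si6. The value for depleted cells is the mean of the Si1 and Si6 group means, with 2 siRNAs weighted equally. The other hypoxic groups, a hypoxia control and a negative control with 3 arrays each, were used to define the hypoxic state and as a side-by-side reference. RNA was measured on one-colour Affymetrix arrays and the values are log2 intensities, so a difference of 1 is a 2-fold change.

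All 5 groups came from melan-Ink4a-Arf-1, an immortal pigment cell line from mice with the alleles Cdkn2a tm1RDp/tm1RDp, so the controls lack the Cdkn2a tumour suppressor locus too, and 1 line stands for the cell type. All were kept at 37 °C in RPMI medium with 10% serum, 200 nM phorbol ester (12-O-tetradecanoylphorbol 13-acetate) and 200 pM cholera toxin. Normoxic cells were kept at about 21% oxygen and 10% CO2. The 4 hypoxic groups spent 24 h at 1% oxygen, 5% CO2 and 94% nitrogen, so the effects of oxygen and CO2 cannot be told apart. Si1 and Si6 cells were transfected 24 h before hypoxia began. The labels say no more of what the hypoxia control and the negative control received, and give no transfection for normoxic cells, so depleted and normoxic cells differ in oxygen, CO2, transfection and Hif1a at once. Arrays of a group are labelled a, b and c and described as biological triplicates of one line, and the p-values measure the spread between these cultures.

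Hypoxia-inducible factors are transcription factors made of an oxygen-regulated alpha subunit, encoded by Hif1a or Epas1, and the stable partner Arnt. With oxygen present, prolyl hydroxylases of the Egln family mark the alpha subunit for destruction through Vhl, and with little oxygen it accumulates and binds short hypoxia response elements near genes for glucose uptake, glycolysis, mitochondrial turnover, blood vessel growth and the hydroxylases themselves. In skin, melanocytes live in mildly hypoxic surroundings, and their identity rests on the transcription factor Mitf and the pigment enzymes it controls.

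The targeted gene was low in both siRNA groups. Hif1a read 10.36, 10.30 and 10.35 in normoxia, 8.61, 8.75 and 8.59 with Si1, and 8.90, 8.91 and 8.98 with Si6. All 6 depleted arrays lay below all normoxia arrays, and the means of the hypoxia control (10.59) and negative control (10.63) lay above normoxia. Against normoxia Hif1a fell by 1.55 on the log2 scale in depleted cells (SE 0.05, limma adjusted p = 3.5e-12), a 2.93-fold difference, so part of the transcript was left. A dimmer probe set of the gene differed by -0.12 (adjusted p = 0.149). HIF protein was not measured. Of the other HIF subunits and regulators, the second oxygen-regulated subunit Epas1 fell by 0.51 (SE 0.07), Vhl by 0.25 and the hydroxylase Egln2 by 0.21. Vhl and Egln2 were called with Si1 (-0.46 and -0.32) and not with Si6 (-0.04 and -0.10). Arnt (-0.07), Arnt2 (0.05), Hif3a (0.15) and the asparagine hydroxylase Hif1an (0.10) did not pass the test. In all, 0 of the 10 list members were higher and 4 were lower than in normoxia, Hif1a included, where 20.8% of all genes were called higher and 16.7% lower. A gene is called here when limma's adjusted p is under 0.05 over all 22180 genes.

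Across the arrays, medians lay between 6.52 and 6.61, correlations within groups between 0.9931 and 0.9957, and those between groups from 0.9782 to 0.9931. The median standard error of a depleted-minus-normoxia difference was 0.065. The cells read as melanocytes: the 8 melanocyte markers had normoxic levels from 9.10 to 13.33. None of the 5 keratinocyte markers measured and 1 of 6 endothelial markers passed the test. Of 6 fibroblast markers 0 were higher and 2 lower, with Col1a1 at 9.35 in normoxia and -1.17 in depleted cells. Of 6 macrophage markers 1 was lower (Lyz2, -0.45). The mean over the fibroblast list was 6.48 to 6.56 in normoxia, 6.09 to 6.19 with Si1 and 6.26 to 6.35 with Si6. Of the 4 Schwann cell markers measured 3 were higher, led by Pmp2, and their mean was 6.73 to 6.79 in normoxia, 7.31 to 7.45 with Si1 and 7.43 to 7.46 with Si6. The arrays have no detection calls, and the part of other cells in any result was not tested.

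The depleted hypoxic cells were far from a normoxic expression state. Of 22180 genes, 4624 (20.8%) were called higher and 3704 (16.7%) lower than in normoxia, 37.5% together. At least 2-fold differences were fewer, 246 higher (1.11%) and 179 lower (0.807%). By the same test 3230 genes (14.6%) were higher and 3493 (15.7%) lower in the negative control than in normoxia, with 281 (1.27%) and 109 (0.491%) at least 2-fold. In the hypoxia control 2190 (9.87%) were higher and 2474 (11.2%) lower. These comparisons share the normoxia arrays, so their values are given side by side. Si1 gave more large differences than Si6, 468 higher (2.11%) and 321 lower (1.45%) against 184 (0.830%) and 116 (0.523%). The share of calls that were higher was 55.5%, and became 64.3% when each array was centred on its median.

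To follow the hypoxic state itself, genes were taken that changed in one direction, at least 2-fold, in both the hypoxia control and the negative control. Hypoxia raised 112 of them and lowered 19. Each was then placed by its value in depleted cells against normoxia. It could remain changed in the hypoxic direction, return to the normoxic level (not called, with the 95% interval within 0.5 of zero), pass normoxia to the opposite side, or stay unsettled. Since the same normoxia arrays enter both steps, the counts describe these cultures and are not independent of the choice. Of the 112 raised genes, 76 (67.9%) remained higher, 26 (23.2%) had returned, 9 (8.04%) were lower than in normoxia, and 1, Mgarp (0.29), was unsettled. Over all genes 20.8% were called higher and 16.7% lower. All 19 lowered genes remained lower. The median of the 112 raised genes was 0.50 in depleted cells, 1.45 in the hypoxia control and 1.69 in the negative control. Directly against the negative control, 106 of the 112 were lower with depletion, and so were 70 of the 76 that remained. Over all genes 13.8% were lower in that comparison. High negative control values were part of the choice of these genes, so this count is not independent of it.

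**Figure D1:**
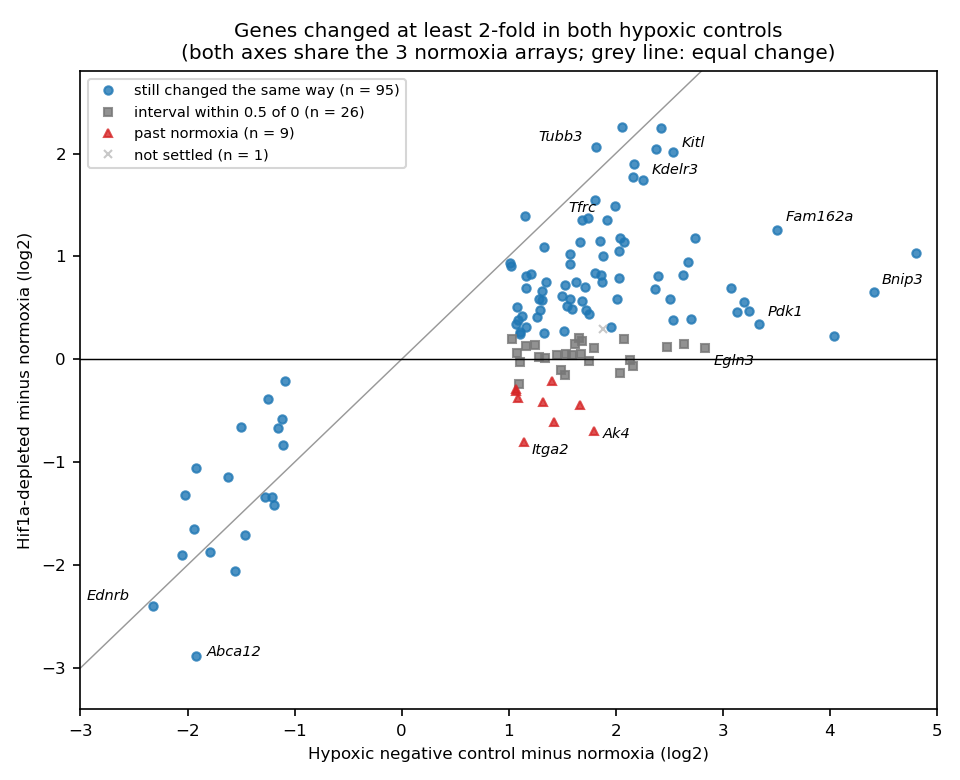
Each point is 1 of the hypoxia-responsive genes, with its log2 fold change in the negative control against normoxia on the horizontal axis and in the depleted cells (mean of Si1 and Si6) against normoxia on the vertical axis, coloured by class. The 76 raised genes that remained sit above zero, the 26 that returned lie near it, the 9 that passed normoxia lie below it, and the 19 lowered genes are all below zero.

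Near the size limit, Gpr143 (-1.0 in the hypoxia control), Ina (1.01 in the negative control) and Smpdl3a (-1.01 in the hypoxia control) were just inside. Aire (1.00 in the negative control, 0.23 in depleted cells), Gm20747 (-1.0 in the hypoxia control) and Cpt1a (-0.99 in the negative control, -0.39 in depleted cells) were just outside.

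Several of the largest hypoxic responses lost most of their size under depletion, yet by the mean of both siRNAs stopped short of normoxia. Bnip3, a mitochondrial receptor for mitophagy, read 7.10, 7.21 and 7.12 in normoxia, 7.63, 7.49 and 7.77 with Si1, 7.89, 8.05 and 7.91 with Si6, and 11.56, 11.56 and 11.55 in the negative control. The depleted arrays lay far below the hypoxic ones and above all 3 normoxia arrays. Its difference from normoxia was 4.41 in the negative control and 0.65 in depleted cells (SE 0.06, adjusted p = 2.8e-07), and depletion lowered it by 3.77 against the negative control.
The 250 bases before the Bnip3 start (GRCm38.p6, chr7:138909507-138909756, minus strand) are shown because this gene lost most of a large rise; capitals mark cores of the hypoxia response element.
Bnip3: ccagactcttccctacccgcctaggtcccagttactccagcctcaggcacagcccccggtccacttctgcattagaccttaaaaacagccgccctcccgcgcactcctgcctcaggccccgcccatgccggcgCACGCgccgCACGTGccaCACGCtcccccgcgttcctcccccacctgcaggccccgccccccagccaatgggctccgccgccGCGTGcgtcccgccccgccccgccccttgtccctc

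Prelid2, of the family of mitochondrial lipid carriers, stood at 4.81 in the negative control and 1.03 in depleted cells. The matching pairs were 3.34 and 0.34 for Pdk1, the kinase that shuts off pyruvate dehydrogenase, 3.20 and 0.56 for the lipoprotein receptor Vldlr, 2.70 and 0.39 for the cell-surface carbonic anhydrase Car9, and 3.51 and 1.26 for the mitochondrial protein gene Fam162a. Stc1, a secreted glycoprotein hormone, fell from 4.04 to 0.23 (SE 0.08, adjusted p = 0.024). Its arrays overlapped, with 5.70 to 5.97 in normoxia and 5.79 to 5.95 with Si6. The Pdk1 remainder came from one siRNA, 0.72 with Si6 and -0.04 with Si1, and a dim second probe set of Pdk1 read 3.45 on average and differed by -0.02. A second Car9 probe set of similar brightness (7.33 on average against 7.80) stood at 0.62 in the negative control and 0.48 in depleted cells, and did not show the loss.

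A second group of hypoxia-raised genes was nearly as high with Hif1a depleted as in the negative control. For many of them the hypoxia control lay lower than both. Kdelr3, a receptor that returns proteins to the endoplasmic reticulum, read 7.95, 7.95 and 7.95 in normoxia, 9.78, 9.79 and 9.77 with Si1, and 9.62, 9.57 and 9.64 with Si6. The groups were far apart. The rise was 1.74 (SE 0.04, adjusted p = 1.6e-13) in depleted cells and 2.26 in the negative control, and the difference of -0.52 between these was called (adjusted p = 5.4e-08).
The Kdelr3 window (chr15:79516158-79516407, plus strand) is shown for comparison, with its cores in capitals.
Kdelr3: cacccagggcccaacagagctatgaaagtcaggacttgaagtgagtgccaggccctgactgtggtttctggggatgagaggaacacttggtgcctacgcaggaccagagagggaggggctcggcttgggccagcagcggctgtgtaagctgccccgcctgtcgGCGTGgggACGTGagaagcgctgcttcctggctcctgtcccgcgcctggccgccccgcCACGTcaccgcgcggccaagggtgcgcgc

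Tfrc, the transferrin receptor for iron uptake, read 8.42, 8.37 and 8.44 in normoxia, 9.92, 9.82 and 9.85 with Si1 and 9.94, 9.97 and 9.90 with Si6. Its rise of 1.49 (SE 0.04) equalled the 1.49 of the hypoxia control and was below the 1.99 of the negative control. Tubb3, a neuronal type of beta tubulin, read 8.27 to 8.45 in normoxia, 10.54 to 10.62 with Si1 and 10.15 to 10.28 with Si6. At 2.06 (SE 0.05) it exceeded the 1.82 of the negative control (difference 0.24, adjusted p = 0.002). Pmp2, a lipid-binding protein of myelin, rose by 2.26 with a negative control value of 2.06, and these did not differ past the threshold (adjusted p = 0.075, interval for depleted cells against normoxia 2.08 to 2.43).

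Other genes kept much of the negative control's rise. Kitl, the ligand of the melanocyte growth factor receptor Kit, stood at 2.02 against 2.54 in the negative control. The palmitoyltransferase Zdhhc2 stood at 1.90 against 2.17. Tnnt2, a cardiac troponin, stood at 1.77 against 2.16. Ly6f, of a gene family with close copies that probes may share, stood at 2.25 against 2.42. Chrnb1, an acetylcholine receptor subunit (1.55 against 1.81), and Slc38a3, a glutamine transporter (2.04 against 2.38), differed between siRNAs. Slc38a3 was 3.13 with Si1 and 0.96 with Si6, and Chrnb1 2.29 and 0.81. The hypoxia control stood lower, at 1.22 for Kitl, 1.63 for Zdhhc2, 1.29 for Tnnt2, 1.20 for Ly6f, 1.13 for Chrnb1 and 1.06 for Slc38a3. It was also lower for Tubb3 (1.49) and Pmp2 (1.42). Depleted cells were not tested against the hypoxia control. Over the 76 genes that remained higher the depleted values ran from 0.23 to 2.26 with a median of 0.75, and 24 were still at least 2-fold above normoxia. Their medians were 1.45 in the hypoxia control and 1.81 in the negative control.

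The 26 returned genes were led by Egln3, the prolyl hydroxylase that feeds back on HIF. Egln3 read 5.82, 5.68 and 5.40 in normoxia, 5.52, 5.75 and 5.87 with Si1, 5.79, 5.75 and 5.74 with Si6, and 8.55, 8.76 and 8.13 in the negative control. The depleted and normoxic arrays overlapped, and the difference was 0.11 with a 95% interval from -0.18 to 0.39, after 2.84 in the negative control.
The Egln3 window (chr12:54203875-54204124, minus strand) is shown as that of a gene that returned, with its 1 core in capitals.
Egln3: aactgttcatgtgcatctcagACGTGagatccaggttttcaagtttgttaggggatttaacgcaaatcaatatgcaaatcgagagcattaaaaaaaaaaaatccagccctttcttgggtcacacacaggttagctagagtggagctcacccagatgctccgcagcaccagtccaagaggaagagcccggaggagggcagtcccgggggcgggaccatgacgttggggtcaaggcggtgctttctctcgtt

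Its relative Egln1 was at 0.11 (interval 0.00 to 0.22) after 1.80. Ceruloplasmin, Cp, a copper-carrying iron oxidase, read 7.61, 7.54 and 7.81 in normoxia and 7.42 to 7.82 over the depleted arrays, a difference of -0.06 after 2.16. The Sprouty family gene Spry3 was at 0.15 after 2.64, Armh4 at -0.01 after 2.13, Abhd18 at 0.20 after 2.08 and Frmd3 at 0.18 after 1.69. Slc16a3, the lactate exporter (0.21), Gys1, glycogen synthase (0.05), the collagen lysyl hydroxylase Plod2 (0.01) and the chemokine Cxcl12 (-0.15) were also among the 26. Muc2, a secreted mucin, was at -0.13 after 2.04, but its second probe set was at 0.22 (adjusted p = 0.004) after 3.78. A mean can return while the siRNAs part. The Plod2 mean was made of 0.26 with Si1 and -0.24 with Si6. Gbe1, the glycogen branching enzyme, was at 0.12 (interval 0.01 to 0.22), made of -0.16 with Si1 and 0.39 with Si6, and 1110015O18Rik at -0.02, made of -0.53 and 0.50. Some returned genes were dim. Normoxia means were 5.63 for Egln3, 4.89 for Spry3, 5.80 for Armh4, 5.58 for Frmd3 and 5.53 for 1110015O18Rik. The keratinocyte marker list averaged 6.16 to 6.30 in normoxia. At such levels a fall past normoxia may not be visible.

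The 9 genes that hypoxia raised and depletion took below normoxia were Itga2, Ak4, Epm2a, Pfkl, B430319G15Rik, Pgbd1, Kdm4b, Pafah1b3 and Tet1. Itga2, a collagen-binding integrin subunit, read 8.74, 8.81 and 8.93 in normoxia, 8.06, 8.07 and 8.03 with Si1, 8.02, 7.96 and 7.99 with Si6, and 10.11, 10.00 and 9.80 in the negative control. All 6 depleted arrays were below normoxia, by 0.80 on average (SE 0.06, adjusted p = 3.8e-08), where the negative control was 1.14 above. Ak4, a mitochondrial adenylate kinase, read 8.62, 8.74 and 8.74 in normoxia, 7.90, 7.88 and 7.97 with Si1, and 8.01, 8.12 and 8.13 with Si6. It also lay below normoxia in all depleted arrays, at -0.70 (SE 0.05, adjusted p = 4.0e-08) after 1.80.

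Epm2a, the glycogen phosphatase laforin, was at -0.61 (SE 0.06) after 1.42, with -0.88 from Si1 and -0.34 from Si6. Pfkl, the liver-type phosphofructokinase of glycolysis, was at -0.44 (SE 0.07), all of it from Si1 (-0.88, against -0.01 with Si6), and its arrays overlapped normoxia. The histone demethylase Kdm4b was at -0.31 and Pgbd1 at -0.38, both with overlapping arrays and called with Si1 (-0.50 and -0.61) but not with Si6 (-0.12 and -0.15). Pafah1b3 was at -0.29 and B430319G15Rik at -0.41. Tet1, which oxidises methylated cytosine in DNA, read 7.71, 8.02 and 7.80 in normoxia, 7.55 to 7.63 with Si1 and 7.60 to 7.74 with Si6. The Tet1 arrays overlapped at 7.74 and 7.71. Its difference of -0.21 (adjusted p = 0.021) lost its call under median centring (-0.17, adjusted p = 0.068) and without normoxia array b (-0.12, adjusted p = 0.175). The aldolase Aldoc, raised by 1.39 in the hypoxia control but by 0.86 in the negative control, missed the size limit. It read 10.13, 10.09 and 10.13 in normoxia, 8.75 to 8.94 with Si1 and 9.25 to 9.76 with Si6, a fall of 0.94 (SE 0.08) with no overlap.

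**Figure D2:**
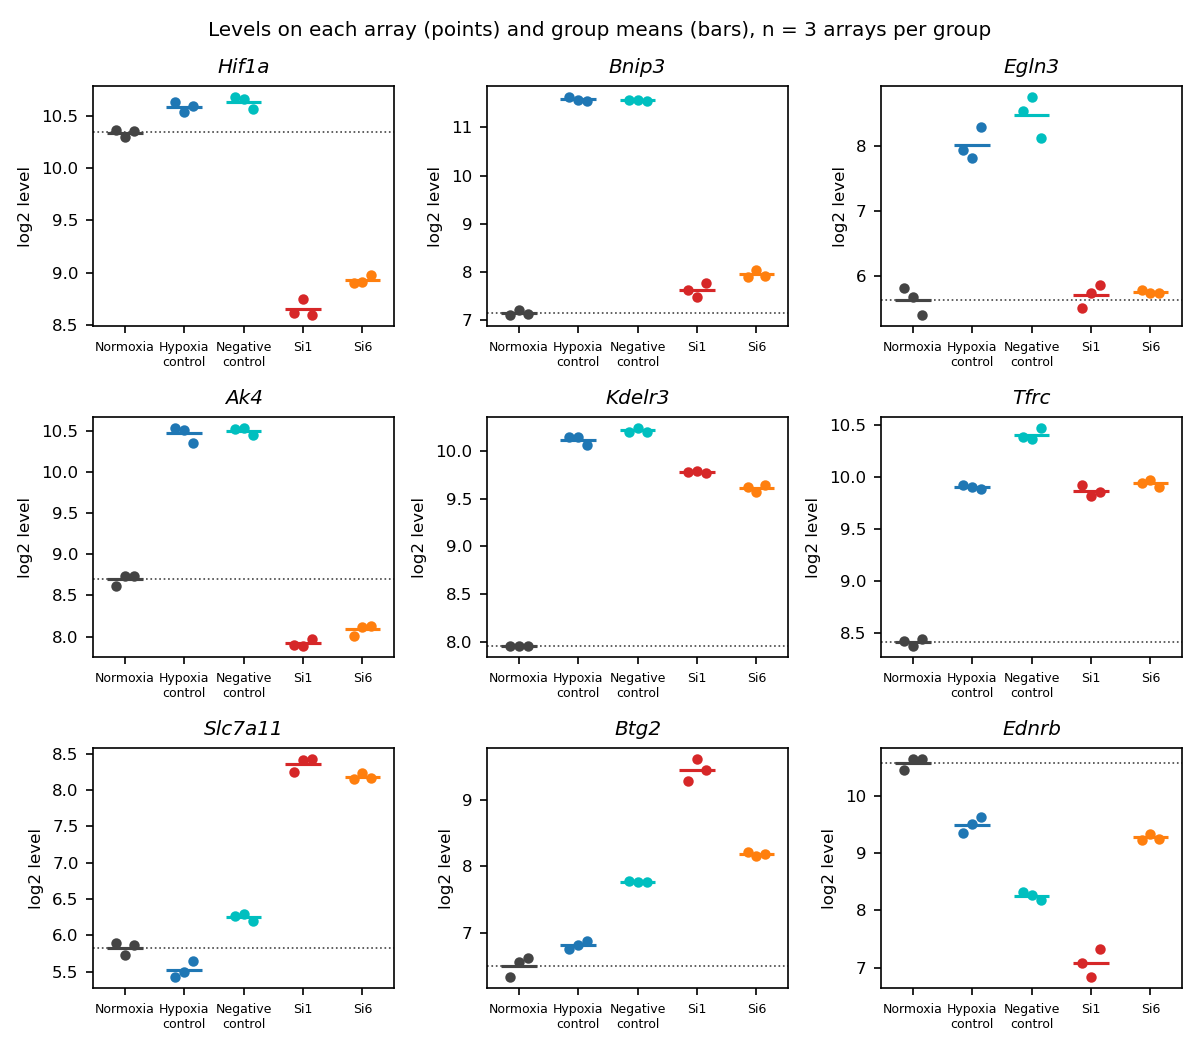
Log2 intensity of Hif1a, Bnip3, Egln3, Ak4, Kdelr3, Tfrc, Slc7a11, Btg2 and Ednrb on each of the 15 arrays, by group, with bars at the group means (3 arrays per group) and a dotted line at the normoxia mean. Among these genes Egln3 is back at the line with both siRNAs, Bnip3 just above it and Ak4 below it, Kdelr3 and Tfrc stay high, and Slc7a11 is highest in the Si1 and Si6 arrays.

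None of the 19 hypoxia-lowered genes reached the normoxic level by the mean of both siRNAs, but several came part of the way. Against the negative control 9 were higher with depletion, 3 lower and 7 not called, with a median difference of 0.28 (19.7% of all genes were higher and 13.8% lower in that comparison). The folate enzyme Mthfd1 was at -0.21 after -1.09 (-0.04 with Si1 and -0.38 with Si6), the arginine sensor family gene Castor2 at -0.39 after -1.25 and the lysosomal peptidase Dpp7 at -0.66 after -1.5. The median of the 19 was -1.34 in depleted cells, -1.11 in the hypoxia control and -1.5 in the negative control, with a depleted range of -2.88 to -0.21, and 13 of 19 were at least 2-fold below normoxia. Abca12, a lipid transporter, read 9.19, 9.23 and 9.36 in normoxia, 6.17, 6.07 and 5.96 with Si1, 6.68, 6.81 and 6.58 with Si6, and 7.33 to 7.34 in the negative control. It was lower with depletion than without, at -2.88 (SE 0.07) after -1.92. Gpr143, the melanosome receptor whose loss causes ocular albinism, was at -2.06 after -1.56 (difference -0.49, adjusted p = 9.5e-06).

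Ednrb, the endothelin receptor of melanocytes, read 10.45, 10.65 and 10.64 in normoxia, 7.08, 6.83 and 7.32 with Si1, 9.24, 9.34 and 9.25 with Si6, and 8.19 to 8.32 in the negative control. Both siRNA groups lay below normoxia but on either side of the negative control. Its mean was -2.40 (SE 0.09), made of -3.50 with Si1 and -1.30 with Si6. Smpdl3a, a lysosomal type phosphodiesterase (-1.87), the secreted glycoprotein Azgp1 (-1.71), the sialyltransferase St6galnac3 (-1.65) and the lipid carrier Apoe (-1.34) were also lower. The Apoe values were -1.28 in the negative control and -1.12 in the hypoxia control. A dim second probe set of Smpdl3a did not differ (-0.04). The result depends on which group defines hypoxia. With the hypoxia control alone as the definition, 6 lowered genes lay above normoxia under depletion, and they were the replication and chromatin genes Chaf1b (0.53), Hells (0.76) and Mcm2 (0.36), the cell cycle gene Rbl1 (0.55), the sodium pump subunit Atp1b1 (0.48) and Dnph1 (0.55).

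Letters of the hypoxia response element were counted in the 250 bases before each start in RefSeq's table (build GRCm38.p6). The core was ACGTG or GCGTG, read on both strands (CACGT or CACGC on the other), and it overlaps the E-box CACGTG. It was present in 38.6% of 32851 windows and in 47.8% of the measured genes with a window. Among genes raised by hypoxia it was in 37 of 60 that remained, 11 of 20 that returned and 5 of 7 that passed normoxia, and among the lowered genes in 9 of 13. Bnip3, Egln3 and Kdelr3, shown above as 1 gene of large loss, 1 that returned and 1 that remained, hold 5, 1 and 3 cores. The Bnip3 count takes its CACGTG as a core on each strand, so these overlap in the capitals. A match describes the letters, not a bound site.

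The gene groups show the same mixture. All counts below for depleted cells against normoxia stand beside 20.8% of all genes higher and 16.7% lower. Of 23 measured genes of glucose uptake and glycolysis, 14 were called higher than normoxia and 3 lower in depleted cells (20.8% and 16.7% of all genes), with a median of 0.29 against -0.01 over all genes. In the negative control 19 of 23 were higher and 0 lower, with a median of 1.05, where 14.6% of all genes were higher. Directly against the negative control, 18 of the 23 were lower with depletion, where 13.8% of all genes were. The hexokinase Hk2 remained at 0.81 after 2.40, the glucose transporter Slc2a1 at 0.75 after 1.63 (dim second probe set 0.09), and Pfkp at 0.70 after 1.71. The monocarboxylate transporter Slc16a1 was higher with depletion (1.10, SE 0.05) than in the negative control (0.84, adjusted p of the difference 0.001). The 3 lower members were Aldoc, Pfkl and the muscle-type phosphofructokinase Pfkm (-0.33).

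Of 24 measured genes of hypoxia adaptation 10 were higher and 8 lower, against 20.8% and 16.7% of all genes, with a median of 0.11 after 1.44 in the negative control. The collagen prolyl hydroxylase P4ha1 was at 1.18 after 2.04 and Higd1a, a protein of the mitochondrial inner membrane, at 0.95 after 2.68. Lox, the collagen cross-linking lysyl oxidase, read 6.76, 6.89 and 6.70 in normoxia, 5.35, 5.36 and 5.17 with Si1, 5.49, 5.31 and 5.24 with Si6, and 5.95 to 6.20 in the negative control. Here hypoxia and depletion both went with lower values, -0.72 in each hypoxic control group and -1.47 (SE 0.07) in depleted cells. The clock-linked repressor Bhlhe41 was at -1.18 after -1.21, while its relative Bhlhe40 was at 0.49 after 0.83.

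Of 16 secreted and angiogenic factors 9 were higher and 0 lower (20.8% and 16.7% of all genes), median 0.31. They included Pdgfb, a growth factor for vessel-wall cells (1.28 after 1.48), Pgf, the placental growth factor (0.94 after 1.43), Vegfa, the main vascular growth factor (0.79 after 2.03), and Apln (0.59 after 2.01). Apln was 1.20 with Si1 and -0.02 with Si6. Over the list 10 were higher and 1 lower with Si1 (median 0.40), and 6 higher and 0 lower with Si6 (0.03). Of all genes 21.7% were higher with Si1 and 17.0% with Si6. Among 14 JmjC histone demethylases, oxygen-dependent enzymes that remove histone methylation, 0 were higher and 8 lower, median -0.18, against the same 20.8% and 16.7%. With Si1, 11 were lower and 0 higher (median -0.25), and with Si6, 6 were lower and 1 higher (-0.09). Of all genes 17.4% were lower with Si1 and 13.1% with Si6. Kdm5b, raised by 0.53 in the negative control, was at -0.65 (SE 0.07), and Kdm7a, at 0.12 there, was at -0.35. Kdm6a (-0.54 after -0.36) and Kdm3b (-0.46 after -0.28) were lower in both. Kdm3a, a known hypoxia-induced member, had returned by the mean (0.02), made of -0.28 with Si1 and 0.32 with Si6.

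**Figure D3:**
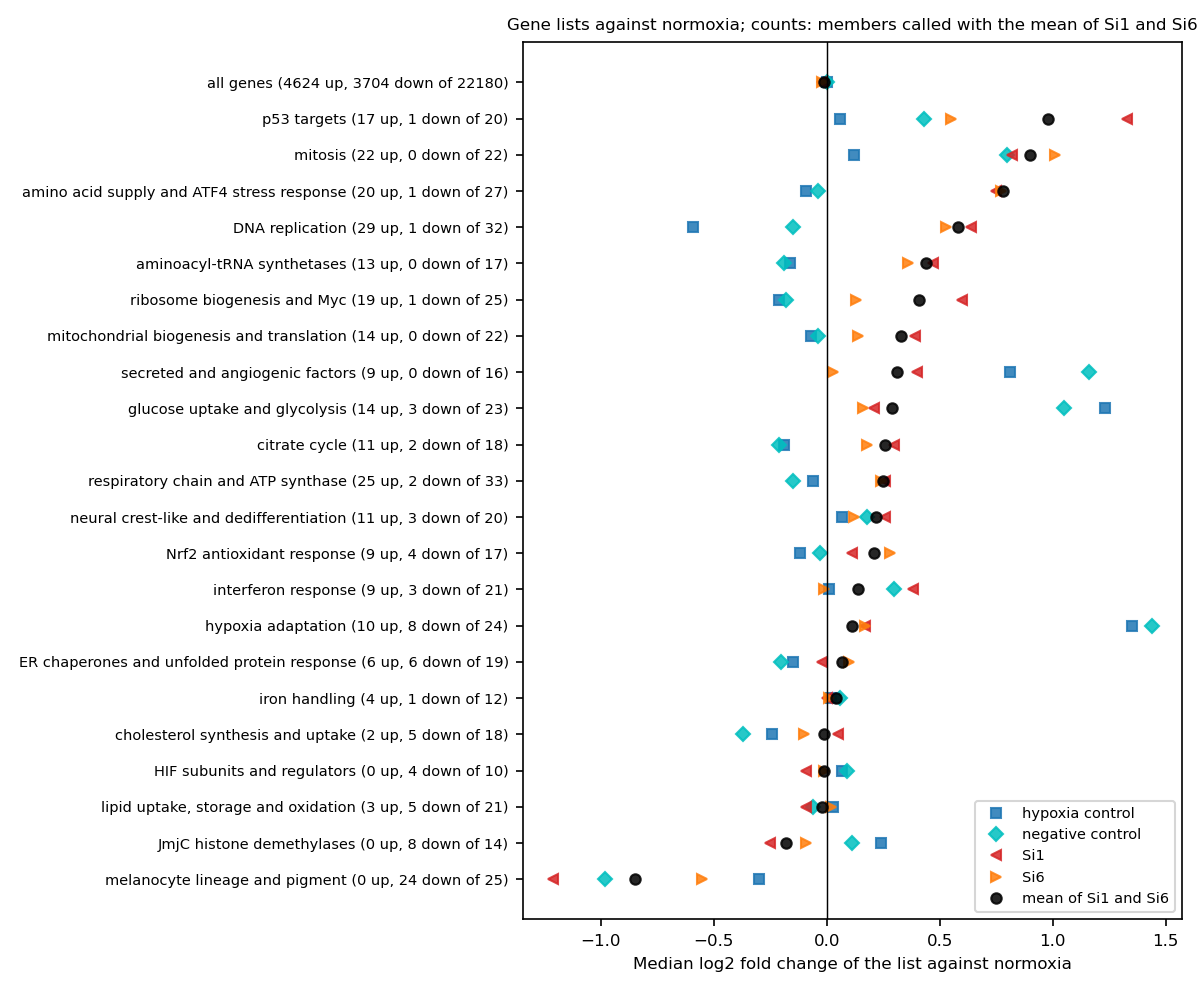
Median log2 fold change against normoxia of each of the gene lists in the hypoxia control, the negative control, Si1, Si6 and the mean of the siRNAs. Glycolysis and hypoxia adaptation move from above 1 in both hypoxic control groups to 0.29 and 0.11 in depleted cells, whereas the amino acid list moves from near zero to 0.78 and the pigment list stays below zero.

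Some gene groups lay above normoxia in depleted cells but had medians at or below zero in both hypoxic control groups. One was amino acid supply and the stress response of the transcription factor ATF4, which is translated when amino acids run short or the endoplasmic reticulum is stressed and turns on transporters and synthetic enzymes. Of its 27 measured members 20 were higher than in normoxia and 1 lower (the transporter subunit Slc3a2, -0.24), with a median of 0.78. In the negative control 6 were higher and 8 lower (14.6% and 15.7% of all genes), with a median of -0.04. In the hypoxia control 5 were higher and 11 lower (9.87% and 11.2% of all genes), with -0.09. The median was 0.75 with Si1 and 0.77 with Si6. Against the negative control 22 of the 27 were higher with depletion, where 19.7% of all genes were.

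Slc7a11, the cystine importer, read 5.90, 5.73 and 5.86 in normoxia, 8.25, 8.41 and 8.43 with Si1, 8.15, 8.23 and 8.17 with Si6, and 6.26, 6.29 and 6.20 in the negative control. All depleted arrays were far above every other array, by 2.45 (SE 0.06, adjusted p = 3.9e-13) against normoxia and 2.02 against the negative control. A dim second probe set (mean level 4.20) did not move (0.00). Chac1, which degrades glutathione, read 8.0, 8.04 and 8.03 in normoxia, 9.74, 9.71 and 9.82 with Si1, 9.26, 9.42 and 9.27 with Si6, and 7.33 to 7.62 in the negative control. It was lower than normoxia in the negative control (-0.53) and the hypoxia control (-0.64) and 1.51 (SE 0.07) higher with depletion. Asparagine synthetase, Asns, followed the same order, at 10.06 to 10.16 in normoxia, 9.84 to 9.94 in the negative control and 11.38 to 11.60 over the depleted arrays, a rise of 1.38 (SE 0.06).

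Mthfd2, a mitochondrial folate enzyme (1.62 after -0.08), and the neutral amino acid transporter Slc1a4 (1.59 after -0.07) were also high. The list was read against the element TGATGNAA, the core that ATF4 dimers recognise, in the same 250 bases on both strands. It was in 3.45% of all windows, 3.4% of measured genes and 7 of the 23 list members with a window. The list was drawn up from genes known for the ATF4 response, so a high share can follow from that choice. A match describes the letters, and the part of ATF4 in these rises was not tested. Slc7a11 and Chac1, the members with the largest rises whose window holds it, have 2 elements and 1 element.
The windows are chr3:50443614-50443863, minus strand, for Slc7a11 and chr2:119350992-119351241, plus strand, for Chac1, with the elements in capitals, and a core CACGC also in capitals in Chac1.
Slc7a11: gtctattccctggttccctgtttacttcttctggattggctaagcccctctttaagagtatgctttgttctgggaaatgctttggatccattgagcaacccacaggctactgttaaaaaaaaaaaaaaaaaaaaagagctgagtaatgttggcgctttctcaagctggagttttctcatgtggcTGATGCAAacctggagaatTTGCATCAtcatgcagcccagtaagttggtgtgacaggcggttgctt
Chac1: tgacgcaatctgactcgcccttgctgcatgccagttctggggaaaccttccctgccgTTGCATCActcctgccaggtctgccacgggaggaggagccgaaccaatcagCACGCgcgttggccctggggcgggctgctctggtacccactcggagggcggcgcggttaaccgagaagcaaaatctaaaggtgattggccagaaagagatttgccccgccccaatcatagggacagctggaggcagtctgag

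Of 17 cytosolic aminoacyl-tRNA synthetases, which load amino acids onto tRNA, 13 were higher and 0 lower (median 0.44). In the negative control 0 were higher and 10 lower (median -0.19), against 14.6% and 15.7% of all genes. Gars rose by 0.93 after -0.41, Cars by 0.92 after -0.24, Iars by 0.85 after -0.04 and Tars by 0.77 after -0.13.

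Genes of mitochondrial energy metabolism lay modestly above normoxia. Of 33 respiratory chain and ATP synthase genes 25 were higher and 2 lower (Ndufv1, -0.19, and Sdha, -0.25), with a median of 0.25. In the negative control 0 were higher and 12 lower (15.7% of all genes were lower), with a median of -0.15. Cytochrome c, Cycs, rose by 0.82 (SE 0.06), and its 4 other probe sets by 0.60 to 1.57, though processed copies of this gene may share probes. The complex IV subunit Cox5a rose by 0.73 after -0.03, Uqcrq of complex III by 0.62 after -0.15 and Sdhb of complex II by 0.58 after -0.23. Of 18 citrate cycle genes 11 were higher and 2 lower, median 0.26. Idh3a, a catalytic subunit of the NAD-linked isocitrate dehydrogenase, rose by 0.92 after -0.21, while the NADP-linked Idh2 was lower in both (-0.91 after -1.13). Of 22 genes of mitochondrial biogenesis and translation 14 were higher and 0 lower, median 0.33, with the chaperone Hspd1 at 10.40 to 10.50 in normoxia, 11.63 to 11.66 with Si1 and 11.24 to 11.36 with Si6 (1.02, SE 0.05). Its partner Hspe1 rose by 0.78.

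DNA replication genes changed sides. Of 32 measured, 31 were lower than normoxia in the hypoxia control (median -0.59), where 11.2% of all genes were. In the negative control 11 were lower and 7 higher (median -0.15), against 15.7% and 14.6% of all genes. In depleted cells 29 were higher and 1 lower (Rpa1, -0.41), with a median of 0.58, against 20.8% and 16.7%. All 32 were higher in depleted cells than in the negative control, where 19.7% of all genes were. Rrm2, a subunit of ribonucleotide reductase, went from -0.78 in the negative control to 0.96 (SE 0.05), with a dim second probe set at 0.05. Orc6 of the origin recognition complex read 8.71, 8.82 and 8.91 in normoxia, 9.93, 10.00 and 10.10 with Si1 and 9.44, 9.62 and 9.64 with Si6, a rise of 0.97. Gins3 (0.92) and Mcm10 (0.88), both of the replication fork, were at 0.88 and 0.84 with Si1 and at 0.96 and 0.91 with Si6. Of 25 ribosome biogenesis and Myc genes 19 were higher and 1, Myc itself (-0.52, SE 0.05), lower, and the median was 0.60 with Si1 but 0.13 with Si6. The polyamine enzyme Odc1 rose by 1.20 after 1.05, Ncl, nucleolin, by 0.76 after 0.65, and the RNA helicase Ddx21 by 0.83 after -0.02 (dim second probe set 0.20). The mean level of Odc1 was 10.94 with Si1, 9.96 with Si6 and 10.31 in the negative control.

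**Figure D4:**
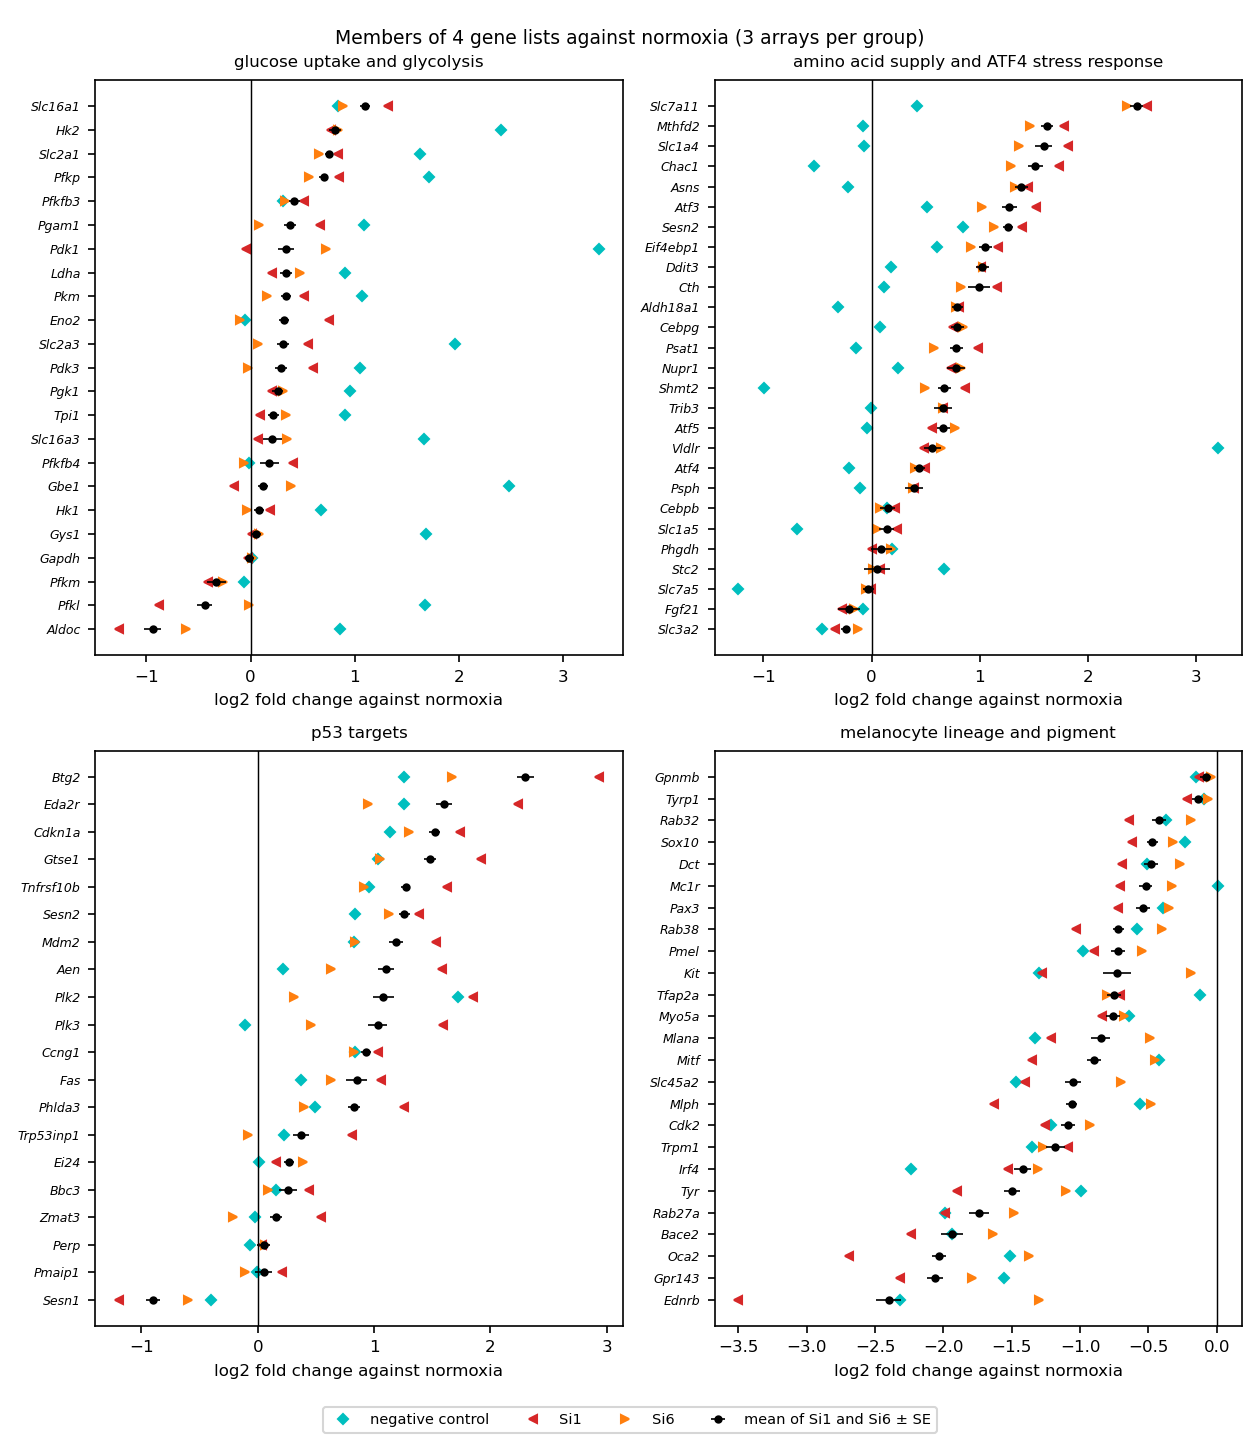
Log2 fold change against normoxia of each measured member of the glycolysis, amino acid, p53 and pigment lists, in the negative control, Si1, Si6 and the mean of both siRNAs with its standard error. Most glycolysis members lie left of their negative control point, Slc7a11, Mthfd2, Slc1a4, Chac1 and Asns lie right of theirs, and 24 of 25 pigment genes are below zero with Si1 mostly farthest from it.

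Other groups were above or below normoxia in depleted cells and in the negative control, with medians nearer zero in the hypoxia control. All 22 mitosis genes measured were higher in depleted cells (median 0.90) and in the negative control (0.80). Of all genes 20.8% and 14.6% were higher in these comparisons. In the hypoxia control 6 were higher and 2 lower (median 0.12), against 9.87% and 11.2% of all genes. Birc5, the survivin gene, read 7.89, 7.74 and 8.06 in normoxia, 9.29, 9.29 and 9.38 with Si1, 9.34, 9.33 and 9.32 with Si6, and 8.69 to 8.92 in the negative control. The kinetochore motor Cenpe (1.23 after 1.18) and the spindle motor Kif11 (1.22 after 1.10) did not differ from the negative control past the threshold (adjusted p = 0.520 and 0.099). The mitotic kinase Aurka rose by 1.14 after 0.93.

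Of 20 genes known as p53 targets 17 were higher and 1 (Sesn1, -0.90) lower, with a median of 0.98 (20.8% and 16.7% of all genes). In the negative control 13 were higher and 1 lower (14.6% and 15.7% of all genes), with a median of 0.43. With Si1 the median was 1.33 and with Si6 0.55. Btg2, an antiproliferative gene, read 6.34, 6.57 and 6.63 in normoxia, 9.28, 9.61 and 9.45 with Si1, 8.22, 8.16 and 8.18 with Si6, and 7.77 to 7.78 in the negative control, and no groups overlapped. It rose by 2.30 (SE 0.07) after 1.26. The cyclin-dependent kinase inhibitor Cdkn1a rose by 1.52 after 1.14, and Mdm2, which targets p53 for destruction, by 1.19 after 0.83. The TNF receptor family member Eda2r rose by 1.60 after 1.26, and Gtse1 by 1.48 after 1.03. With Si6 the mean levels of Mdm2 (11.06) and Gtse1 (9.46) were near those of the negative control (11.05 and 9.43). Eda2r was below it with Si6 (7.67 against 7.98) and Cdkn1a above it (11.71 against 11.56). With Si1 each of these genes was above the negative control. Of 21 interferon response genes 9 were higher and 3 lower (median 0.14), with 16 higher for Si1 and 3 for Si6, where 21.7% and 17.0% of all genes were. Oasl2 was at 1.36 after 1.37, Usp18 at 1.18 after 0.84 and the RNA sensor Ddx58 at 0.74 after 1.21, while Ifit2 was at -0.67 after -0.65. Usp18 averaged 9.09 with Si1, 7.54 with Si6 and 7.98 in the negative control, and Oasl2 8.11, 6.87 and 7.50. The part of transfection in these groups was not tested, since the labels give it for the siRNA groups alone.

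The melanocyte programme was lower in depleted hypoxic cells than in normoxia. Of 25 lineage and pigment genes 0 were higher and 24 lower, median -0.85, in a background of 16.7% lower. The negative control had 22 lower (median -0.98) and the hypoxia control 17 (median -0.30), against 15.7% and 11.2% of all genes. Si1 stood at -1.21 and Si6 at -0.55. Tyr, tyrosinase, the rate-limiting pigment enzyme, read 11.30, 11.27 and 11.27 in normoxia, 9.55, 9.25 and 9.34 with Si1, 10.17, 10.28 and 10.08 with Si6, and 10.28 to 10.30 in the negative control. It fell by 1.5 (SE 0.06), more with Si1 than with Si6.

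Mitf, the master regulator, read 11.49, 11.48 and 11.58 in normoxia, 10.19, 10.21 and 10.10 with Si1, 11.04, 11.15 and 11.02 with Si6, and 11.08 to 11.12 in the negative control. The Si6 arrays overlapped the negative control and the Si1 arrays were well below it, so the mean fall of 0.90 (SE 0.05) was made of -1.35 and -0.45. Among the 8 melanocyte markers Mlana (-0.85), Kit (-0.73), Pmel (-0.72), Dct (-0.48) and Sox10 (-0.47) also fell. Kit was called with Si1 (-1.28) and not with Si6 (-0.19), whose arrays overlapped normoxia. Tyrp1 differed by -0.14 (adjusted p = 0.018) with overlapping arrays. The mean over the 8 markers was 11.83 to 11.89 in normoxia, 10.82 to 10.86 with Si1 and 11.39 to 11.48 with Si6. In bulk RNA fewer cells of a type and less RNA per cell cannot be told apart. The pigment transporter Oca2 (-2.03 after -1.51) and Bace2, a protease that cleaves the melanosome protein Pmel (-1.94 after -1.94), were among the largest falls of all genes.

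Of 20 neural crest-like and dedifferentiation genes 11 were higher and 3 lower (Egfr, -0.30, Tgfbi, -0.16, and Wnt5a, -0.35), median 0.22. Ngfr, the nerve growth factor receptor found on neural crest cells, read 8.27, 8.08 and 8.22 in normoxia, 10.02, 9.90 and 10.18 with Si1, 9.88, 9.62 and 9.70 with Si6, and 8.45 to 8.50 in the negative control. Its rise of 1.69 (SE 0.07) was larger than the 0.28 of the negative control by 1.41. The matricellular genes Ccn1 (1.87 after 1.70) and Thbs1 (1.16 after 1.87) and the AP-1 subunit Jun (1.45 after 1.16) were high in both. Mean levels of Ccn1 were 10.81 with Si1, 8.79 with Si6 and 9.63 in the negative control. Those of Jun were 10.45, 9.52 and 9.69, and those of Thbs1 10.87, 9.53 and 10.90. Ccn1 and Jun thus lay above the negative control with Si1 only.

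Several groups were mixed. For lipid uptake, storage and oxidation 3 of 21 were higher and 5 lower, close to the background shares. Dgat1, a triglyceride-forming enzyme, was at -0.50 after -1.05, Hadhb of fatty acid oxidation at -0.44 after -0.47 and Dgat2 at 0.42 after 0.36. For cholesterol synthesis 14 of 18 were lower in the negative control (median -0.37), where 15.7% of all genes were. In depleted cells 2 were higher and 5 lower than normoxia (median -0.01), and 13 were higher than in the negative control (median difference 0.32). The sterol demethylase Cyp51 (0.29 after -0.16) and Sc5d (0.23 after -0.17) were the 2 higher members, and those lower included Tm7sf2 at -0.75 after -0.36, Mvd at -0.38 after -0.64, and Nsdhl (-0.36) and Fdft1 (-0.35) near their negative control values of -0.37 and -0.44. Of 19 chaperones and unfolded protein response genes of the endoplasmic reticulum 6 were higher and 6 lower, none past 0.41 by the mean. That largest value was of Atf6, called with Si1 (0.71) and not with Si6 (0.12). Over all genes 20.8% were higher and 16.7% lower. Of 17 Nrf2 antioxidant genes 9 were higher and 4 lower by the mean, but the siRNAs differed. With Si1, 8 were higher and 7 lower, where 21.7% and 17.4% of all genes were. With Si6, 13 were higher and 1 lower, where 17.0% and 13.1% of all genes were. Taldo1 of the pentose phosphate pathway (0.76 after -0.06) and Gclc, the first enzyme of glutathione synthesis (0.56 after -0.21), rose with depletion, and haem oxygenase, Hmox1, was at 0.59 after 1.28. Of 12 iron handling genes 4 were higher, with Tfrc the largest, and 1 lower, against 20.8% and 16.7% of all genes. The lower one, Hfe (-0.65), was called with Si1 (-1.18) and not with Si6 (-0.12).

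The largest single rises over normoxia were led by Tnfrsf23, a decoy receptor of the TNF receptor family, at 7.05, 6.52 and 6.87 in normoxia, 10.60, 10.75 and 10.66 with Si1, 9.16, 9.01 and 9.17 with Si6, and 8.87 to 9.04 in the negative control. The Si6 and negative control arrays overlapped. Its rise was 3.08 (SE 0.11), against 2.14. The chemokine Ccl5 (2.67 after 1.84), the transcription factor Mybl1 (2.46 after 1.62), Ddias (2.41 after 1.73), the D-glutamate cyclase Dglucy (2.40 after 2.03) and the TWEAK receptor Tnfrsf12a (2.36 after 1.82) were likewise high in the negative control. Fam171b (2.34 after 1.21), 1700007K13Rik (2.69 after 1.31), Prrg4 (2.15 after 1.60) and the potassium channel Kcnma1 (2.23 after 1.45) followed. A dim probe set of Kcnma1 went the other way (-0.42, adjusted p = 4.7e-05). Slc7a11 had the smallest negative control value (0.42) of those named here.

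Among the largest falls, 8430437L04Rik (-2.78 after -0.86) and the matrix gene Hmcn1 (-2.52 after -0.91) were far lower with depletion than without (-1.92 and -1.61 against the negative control, adjusted p = 3.9e-12 and 5.4e-12). The cytochrome P450 genes Cyp2j6 (-2.04 after -1.22) and Cyp2d22 (-1.91 after -1.14) have close relatives that probes may share. The monoacylglycerol lipase Mgll (-2.01 after -1.48), Tcp11l2 (-1.89 after -1.11), Fstl4 (-1.88 after -1.14) and Coq8a, which takes part in making coenzyme Q (-1.86 after -1.15), were also among them, with the dim gene 4933430M04Rik (-1.90 after -2.05).

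The mean of both siRNAs hides genes on which they disagreed. Of 22180 genes, 6198 (27.9%) differed between Si1 and Si6, and 370 (1.67%) were called in opposite directions against normoxia. At the 2-fold limit 189 genes (0.852%) were higher with Si1 than with Si6 and 91 (0.410%) lower. Of the 153 named genes called with the mean, 133 were called in the same direction with each siRNA, 18 with Si1 alone and 2 with Si6 alone (Pdk1 and Ireb2). Smooth muscle actin, Acta2, read 8.54, 8.36 and 8.15 in normoxia, 11.41, 11.42 and 11.40 with Si1, and 8.02, 8.06 and 7.95 with Si6. It was 3.06 above normoxia with one siRNA and 0.34 below with the other, and the mean of 1.36 describes neither. The matrix protein gene Tnc (2.36 and -0.66), the actin cross-linker Flnc (1.80 and -0.47) and the cytokine receptor Il13ra1 (1.28 and -0.73) went the same way. The iron exporter Slc40a1 (-0.91 and 1.25) and Fbxw18 (-1.44 and 0.57) went the other way. Wincr1, a long non-coding RNA, rose with both, by 3.84 and 0.38. Requiring a call with the mean, with each siRNA and no overlap of arrays left 2749 genes (12.4%) higher and 1958 (8.83%) lower, and the depleted arrays lay wholly above normoxia for 3390 genes (15.3%) and wholly below for 2672 (12.0%).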

How the data were processed

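RNA of 15 cultures was hybridised to one-colour Affymetrix arrays. A single table, deposited by the authors, gives log2 intensity for 41345 probe sets, and the submitters' processing notes name RMA and Partek without version, settings or order. RMA quantile-normalizes arrays, which hides any shift common to all genes and shrinks changes of dim genes. Only the 23521 probe sets with 1 gene symbol in the platform annotation were used (1814 had several, 16010 none). Of these, 23328 matched RefSeq. The brightest probe set stood for each of 1082 genes with several, which left 22180 genes. A model with 5 group means was fitted to the log2 values of the 15 arrays with limma 3.58.1 (R 4.3.3, eBayes). P-values are two-sided, and each comparison was adjusted by Benjamini-Hochberg over the 22180 genes. The fit was tested on simulated data. The number of arrays limits the precision.

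The gene classes and the 22 lists and 6 marker lists (516 genes, 475 measured) were chosen with earlier results of these data known. Named genes are Hif1a, the 15 largest rises and 15 largest falls past the test with no overlap of arrays, up to 10 genes of each class by size, all HIF regulators, up to 4 members per list by size, and 6 genes called in opposite directions by the siRNAs. Further genes, among them Bnip3, Mitf, Tyr, Asns and Mdm2, and minority members of lists and returned or partly recovered genes outside that rule were named after their values were seen. Promoter windows were matched by symbol for 131 of 168 named genes. Alternatives tried were other normalizations, low-value filters, probe set rules, variance settings, array weights, fewer groups, the replicate letter as a block, other definitions of the hypoxic state, and leaving out each array.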

Additional observations from a re-analysis of the deposited data

Results flagged for a closer look

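For 30 of the 168 named genes the change against normoxia differed between the siRNAs, by a test of the difference itself (limma, Si1 minus Si6, at least 1 on the log2 scale, adjusted p from 5.7e-13 to 2.7e-04). Si1 was above Si6 for 19 of them and below for 11. Over all genes 189 (0.852%) were higher and 91 (0.410%) lower at that limit. The count of 30 is partly fixed by the naming rule, since Acta2, Tnc, Flnc, Slc40a1, Fbxw18 and Il13ra1 were named for opposite calls. Each siRNA group has 3 arrays, and no cause was tested.

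Si1 was higher than Si6 most for Wincr1 (3.46), Acta2 (3.40), Tnc (3.02), Flnc (2.27), Slc38a3 (2.17), Ccn1 (2.02) and Il13ra1 (2.0). The genes of cytoskeleton and matrix in this group, Acta2, Tnc, Flnc, Ccn1 and Thbs1 (1.34), had Si1 values of 3.06, 2.36, 1.80, 2.88 and 1.83 against normoxia. The receptor genes Tnfrsf23 (1.55), Tnfrsf12a (1.39) and Eda2r (1.29), the interferon-induced genes Usp18 (1.55) and Oasl2 (1.25) and the p53 target Btg2 (1.26) were above normoxia with both siRNAs. So were 1700007K13Rik (1.52), Chrnb1 (1.48), Pgf (1.08) and Ccl5 (1.01). Apln differed by 1.22 and stood at the normoxic level with Si6 (-0.02).

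Si1 was lower than Si6 for Ednrb (-2.20), Slc40a1 (-2.16), Fbxw18 (-2.01), Fstl4 (-1.34) and the pigment genes Oca2 (-1.32) and Kit (-1.09). The others were Ly6f (-1.18), Smpdl3a (-1.10), Hfe (-1.06), 1110015O18Rik (-1.03) and Azgp1 (-1.01).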

How the results depend on the processing

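Of the 153 named genes called in depleted cells against normoxia, 150 kept their call in every one of the 25 refits that held them. These refits include leaving out single arrays. The 25% and 50% low-value filters held 167 and 158 of the 168 named genes, so the dimmest named genes were not tested there. The exceptions were Tet1, Tyrp1 and Stc1, whose call was lost in some. Stc1 stood at 0.20 with array weights (adjusted p = 0.052) and 0.15 without normoxia array a (adjusted p = 0.174), and Tyrp1 at -0.10 with median centring (adjusted p = 0.111). Among named genes not called, Egln1, Gbe1, Abhd18, Spry3, Frmd3, Arnt, Hif3a, Hif1an and Slc40a1 gained a call under some settings, with Abhd18 the largest in size at 0.26. No named gene reversed a called direction. Leaving out one array at a time gave 4166 to 4653 genes higher and 3282 to 3745 lower, 74 to 81 hypoxia-raised genes that remained, 8 to 10 that passed normoxia, 22 to 27 that returned, and 15 to 23 lowered genes that remained.

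The definition of the hypoxic state moved the class counts most. The negative control alone defined a larger set, 281 raised and 109 lowered genes against 112 and 19. In that set 223 raised genes remained, 14 passed normoxia, 41 returned, and 103 lowered genes remained. With the hypoxia control alone, 6 lowered genes passed normoxia where there had been 0. With Si1 alone in place of the mean, 15 raised genes passed normoxia, and with Si6 alone 6 did. Without the lowest 50% of genes by mean level 13 returned. That filter leaves out dim genes, and returned genes such as Spry3 (mean level 5.90), 1110015O18Rik (6.09) and Frmd3 (6.24) are among the dimmest named genes. The returned genes Gbe1, Abhd18 and Egln1 gained a call under it. The share of calls that were higher was 59.6% with quantile normalization and 64.3% with median centring. The fit on the normoxia, Si1 and Si6 arrays alone gives no class counts, which need the other groups. The replicate letters did not pair the arrays: 3 of 30 same-letter pairs of deviations correlated above 0.1 (range -0.22 to 0.21), and 4 of 15 arrays were closest to their own letter. With the letter as a replicate block 4531 genes were higher and 3623 lower, and 77 raised genes remained. Arrays without detection calls leave dim genes unsettled, and protein was not measured.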
